A study of Mus musculus with 4 samples.

Results

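The 10 genes followed here mark lung fibroblasts or build the matrix around them, collagens aside: Pdgfra, Tcf21, Eln, Fbn1, Lox, Dcn, Lum, Fn1, Postn and Sparc. They were chosen by name, as 10 of 35275 gene identifiers in a table of expression values, and 9 of the 10 passed the filter on low values. The 4 RNA sequencing libraries came from lung tumours of Balb/c mice, 2 from Nrf2 -/- mice (knockout) and 2 from Nrf2 +/+ mice (wild type). The Nfe2l2 gene encodes Nrf2, a transcription factor that switches on antioxidant and detoxification genes. Mice of both genotypes had been given vinyl carbamate, a carcinogen that causes lung tumours, 2 or 4 times at 16 mg/kg. Tumours were taken 40 to 44 weeks after the first exposure, with 3 to 4 combined in each sample. Doses, weeks and tumours are labelled as these ranges and not per sample, and a pooled tumour sample holds stroma, blood and immune cells besides tumour cells.

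Fibroblasts are the cells that lay down the lung's connective tissue, and in the growing lung some of them depend on signals through the receptor PDGFRA. Elastic fibres give the lung its recoil. In them a core of elastin is laid on a scaffold of fibrillin microfibrils and is cross-linked by lysyl oxidase. Decorin and lumican are small proteoglycans that bind collagen fibrils, while fibronectin, periostin and SPARC link matrix to cells or tune its assembly.

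Levels are FPKM as deposited, which are read counts scaled to the gene's length and the library's total. The values imply library totals of 17975646 and 16892588 reads in knockout libraries 1 and 2, and of 21659572 and 21220307 reads in wild-type libraries 1 and 2. Nfe2l2 itself (chromosome 2, 75675513 to 75704641) stood at 3.66 and 2.96 FPKM in knockout libraries, against 96.3 and 87.9 FPKM in wild-type libraries, and fell with a log2 fold change of -4.44 ± 0.13 (SE; limma adjusted p = 0.000378). As a check of the labelled tissue, 12 of 12 listed alveolar epithelial markers passed the filter, led by Sftpc, surfactant protein C, at 90500 and 76000 FPKM in knockout libraries and 75200 and 77700 FPKM in wild-type libraries. Their summed level was 121071 and 105978 FPKM in knockout libraries and 109504 and 110095 FPKM in wild-type libraries. Of 13147 genes tested with limma on log2(FPKM + 1), 15 (0.114%) passed an adjusted p of 0.05, 0.0761% higher and 0.038% lower in knockout tumours.

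None of the 9 tested fibroblast and elastic fibre genes passed limma's adjusted threshold, against that background of 0.114% (0.0761% higher and 0.038% lower). At an unadjusted p under 0.05 there were 3 of them, all higher in knockout tumours (Dcn, Tcf21 and Eln), where the background at that level was 8.36% higher and 7.01% lower. The limma-voom fit on recovered reads also called 0 of them. For 5 of the 10 (Pdgfra, Tcf21, Eln, Lox and Dcn) both knockout libraries lay above both wild-type libraries, an arrangement seen in 22.7% of all tested genes. For the other 5 (Fbn1, Lum, Fn1, Postn and Sparc) the genotypes overlapped. That count of 5 was 8 without knockout 1 and 9 without wild type 1, where 39.1% and 32.3% of tested genes were so arranged. It was 5 without knockout 2 and 5 without wild type 2, where 34% and 37.7% of tested genes were so arranged. Over the 9 the median log2 fold change was 0.52, beside a median of 0.00 over all genes tested. It was 0.24 without wild type 2, 0.30 without knockout 2, 0.63 without knockout 1, 0.74 without wild type 1 and 0.24 with a pseudocount of 10. With whole tumours, more or fewer fibroblasts and more or less RNA per fibroblast cannot be told apart. Nothing in the labels says more of the samples' independence than that separate mice were used, so p-values measure the spread between these 4 libraries. That spread is not the gene's own alone, as limma drew each variance toward that of other genes (4.12 prior against 2 residual degrees of freedom).

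**Figure D1:**
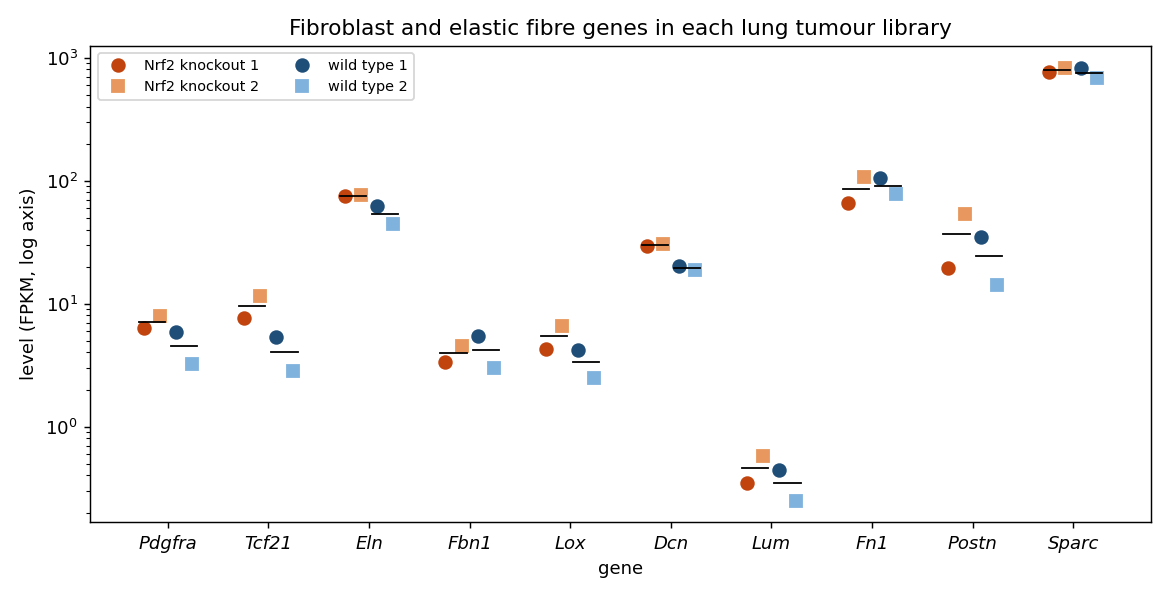
Level of each gene (FPKM, log axis) in knockout libraries 1 and 2 (orange, left of each gene) and wild-type libraries 1 and 2 (blue, right), with a line at each genotype's mean. Sparc sits highest at 676 to 829 FPKM and Lum lowest at 0.25 to 0.571 FPKM, and the orange points lie above the blue ones for Pdgfra, Tcf21, Eln, Lox and Dcn.

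Levels per length spanned a wide range. Sparc was highest, with a mean over the 4 libraries of 772 FPKM, followed by Fn1 at 88.5, Eln at 64.4, Postn at 30.5, Dcn at 24.7, Tcf21 at 6.85, Pdgfra at 5.81, Lox at 4.38, Fbn1 at 4.07 and Lum at 0.403 FPKM. Sparc stood above Fn1, Lum stood below Fbn1 and Tcf21 stood below Dcn in every library without overlap. Over the 4 libraries the ranges of Fn1 and Eln overlapped, as did those of Eln and Postn and of Postn and Dcn. The ranges of the 4 genes Tcf21, Pdgfra, Lox and Fbn1 overlapped with each other. Within each library some of these pairs still kept the same order, such as Eln above Postn and Pdgfra above Lox and Fbn1.

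Tcf21 and Pdgfra mark the fibroblast lineage itself. Tcf21 encodes a basic helix-loop-helix transcription factor of lung mesenchyme and lies on chromosome 10 (22817281 to 22820174, minus strand, mm10). It stood at 7.64 and 11.6 FPKM in knockout libraries 1 and 2, against 5.32 and 2.81 FPKM in wild-type libraries 1 and 2. The genotypes did not overlap, and wild type 2 was lowest. The means were 9.63 ± 2.81 FPKM in knockout and 4.07 ± 1.77 FPKM in wild-type tumours (SD, n = 2 each), a ratio of 2.37 that was the highest of the 10 genes. The log2 fold change was 1.09 with a 95% interval of 0.39 to 1.79 (limma adjusted p = 0.197), and was 0.72 without wild type 2. It rests on few reads, 168 and 240 in knockout libraries and 141 and 73 in wild-type libraries.

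Pdgfra encodes the receptor for platelet-derived growth factor A and lies on chromosome 5 (75152292 to 75198215, plus strand). It stood at 6.27 and 7.93 FPKM in knockout libraries, against 5.82 and 3.23 FPKM in wild-type libraries. Knockout 1 and wild type 1 were close, and the gap between genotypes came largely from wild type 2. The 2 wild-type libraries differed by a ratio of 1.80, more than the ratio of 1.57 between the genotype means. The exact Poisson intervals, which cover counting error only, were 5.43 to 6.23 FPKM in wild type 1 and 2.94 to 3.54 FPKM in wild type 2 and did not overlap. The log2 fold change was 0.59 with an interval of -0.01 to 1.18 (limma adjusted p = 0.336), and was 0.24 without wild type 2 and 0.93 without wild type 1. Tcf21 per Pdgfra was 1.22 and 1.46 in knockout libraries and 0.915 and 0.87 in wild-type libraries, so the ratio did not overlap between genotypes. No exact permutation test (two-sided) of 2 against 2 libraries can give a p under 0.333.

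The bases upstream of the start sites of these genes, and of Postn, the member with the widest spread between replicates, are given here because Tcf21 and Pdgfra both lay higher in both knockout libraries and Nrf2 is the factor removed. Each window holds the 250 bases before a RefSeq start site (GRCm38.p6), 5′ to 3′ on the gene's strand, with motif matches in capitals. The windows are chr10:22820144-22820393 (minus strand) for Tcf21, chr5:75152001-75152250 (plus strand) for Pdgfra, and chr3:54359017-54359266 and chr3:54360857-54361106 (plus strand) for upstream and downstream starts of Postn.
Tcf21: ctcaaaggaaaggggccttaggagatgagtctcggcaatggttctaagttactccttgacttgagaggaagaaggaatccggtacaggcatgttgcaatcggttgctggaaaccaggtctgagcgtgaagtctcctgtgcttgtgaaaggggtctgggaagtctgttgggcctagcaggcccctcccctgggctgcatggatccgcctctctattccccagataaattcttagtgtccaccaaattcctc
Pdgfra: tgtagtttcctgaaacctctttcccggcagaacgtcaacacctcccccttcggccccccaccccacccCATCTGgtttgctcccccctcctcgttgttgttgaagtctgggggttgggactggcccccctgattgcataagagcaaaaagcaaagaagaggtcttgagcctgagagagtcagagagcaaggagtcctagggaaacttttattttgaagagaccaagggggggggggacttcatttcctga
Postn upstream start: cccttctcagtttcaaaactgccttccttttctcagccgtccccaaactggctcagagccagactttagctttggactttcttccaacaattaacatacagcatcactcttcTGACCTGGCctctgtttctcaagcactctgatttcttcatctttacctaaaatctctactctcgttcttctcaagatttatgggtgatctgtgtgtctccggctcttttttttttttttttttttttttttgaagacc
Postn downstream start: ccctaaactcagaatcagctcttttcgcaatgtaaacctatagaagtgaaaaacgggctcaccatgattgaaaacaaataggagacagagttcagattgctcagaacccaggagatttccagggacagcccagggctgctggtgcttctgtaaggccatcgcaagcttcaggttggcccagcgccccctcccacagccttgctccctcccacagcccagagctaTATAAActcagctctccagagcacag

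The 5 motifs were searched on both strands of these windows and of those of Fbn1 and Sparc, and no matches overlapped each other. No window of Dcn, Eln, Fn1, Lox or Lum was searched. Eln, Lox and Dcn, which also lay higher in both knockout libraries, are thus not covered. The NRF2 antioxidant response element core (TGACNNNGC) matched once, in the upstream Postn window, 129 bases before the start site, where 10.2% of 32851 windows of the same length hold a match. The E-box (CANNTG), the letters that basic helix-loop-helix factors such as TCF21 recognise, matched once for Pdgfra and 2 times for Sparc, and 66.2% of windows hold it. A TATA box (TATAAA) lay 20 bases before the downstream Postn start (12.4% of windows), and a GC box (GGGCGG) lay in the Fbn1 window (32.7% of windows). The windows of Tcf21, Fbn1 (chr2:125506439-125506688, minus strand) and Sparc (chr11:55420081-55420330, minus strand) precede RefSeq starts that lie inside the gene spans given here. The Tcf21 window thus lies partly within its gene's span, and those of Fbn1 and Sparc lie wholly within theirs. The AP-1 site (TGANTCA), held by 6.75% of windows, had 0 matches in the 6 windows. A match describes letters in the sequence and is not evidence of binding.

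The elastic fibre genes differed among themselves. Eln encodes elastin, the core of the fibre, and lies on chromosome 5 (134702593 to 134747323, minus strand). It stood at 74.6 and 76.2 FPKM in knockout libraries, against 62.0 and 44.6 FPKM in wild-type libraries. Both knockout libraries lay above both wild-type libraries and close to each other, while the wild-type libraries differed by a ratio of 1.39. Limma gave a log2 fold change of 0.51 with a 95% interval of 0.11 to 0.91 (limma adjusted p = 0.253), which was 0.28 without wild type 2.

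Lox encodes lysyl oxidase, the enzyme that cross-links elastin and collagen, and lies on chromosome 18 (52516067 to 52529867, minus strand). It stood at 4.26 and 6.56 FPKM in knockout libraries, against 4.21 and 2.49 FPKM in wild-type libraries. Knockout 1 and wild type 1 were nearly equal, with overlapping counting intervals (3.80 to 4.76 and 3.79 to 4.66 FPKM), so the separation of the genotypes rests on knockout 2 and wild type 2. For Lox the log2 fold change was 0.56 with an interval of -0.06 to 1.19 (limma adjusted p = 0.369), and was 0.28 without wild type 2, 0.30 without knockout 2 and 0.85 without wild type 1.

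Fbn1 encodes fibrillin-1, the main microfibril protein, and lies on chromosome 2 (125300594 to 125507993, minus strand). It stood at 3.36 and 4.51 FPKM in knockout libraries, against 5.43 and 2.98 FPKM in wild-type libraries. The wild-type libraries held both the highest and the lowest value. Its log2 fold change was -0.05 with an interval of -0.67 to 0.57 (limma adjusted p = 0.951), and it was above 0 without knockout 1 (0.12) and without wild type 1 (0.30).

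Eln and Fbn1 were set against each other within each library, a pair chosen after the values were seen. Eln per Fbn1 was 22.2 and 16.9 in knockout libraries and 11.4 and 15.0 in wild-type libraries. The genotypes did not overlap, with means of 19.6 in knockout and 13.2 in wild-type tumours. Lox per Eln overlapped, at 0.0571 and 0.086 in knockout libraries and 0.0679 and 0.0557 in wild-type libraries.

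Further genes of the same pathways and cells were read from lists, and of the 10 lists described next (elastic fibre assembly to fibroblast collagens) the limma-voom fit on recovered reads called 1 gene, Col6a1. Genes of elastic fibre assembly came from a list of 20, of which 18 were tested and 0 passed limma's adjusted threshold. At an unadjusted p under 0.05 there were 6, all higher in knockout tumours, where all tested genes gave 8.36% higher. Both knockout libraries lay above both wild-type libraries for 7 and below them for 2, against 22.7% and 25.4% of all tested genes, and the list median was 0.36. The 3 genes with the largest separated differences were microfibril or fibulin genes. Mfap5, a microfibril-associated glycoprotein, stood at 23.1 and 29.0 FPKM in knockout libraries, against 10.9 and 10.8 FPKM in wild-type libraries (log2 fold change 1.19 ± 0.14 SE, limma adjusted p = 0.0696). Its libraries differed by a ratio of 1.26 in knockout and 1.01 in wild-type tumours. Mfap4, which binds elastin and also stands on the list of fibroblast markers, stood at 69.5 and 101 FPKM in knockout libraries, against 55.4 and 24.8 FPKM in wild-type libraries (1.15 ± 0.37, limma adjusted p = 0.253). Efemp1, fibulin-3, stood at 8.53 and 14.0 FPKM in knockout libraries, against 5.92 and 5.23 FPKM in wild-type libraries (0.87 ± 0.22, limma adjusted p = 0.194).

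**Figure D2:**
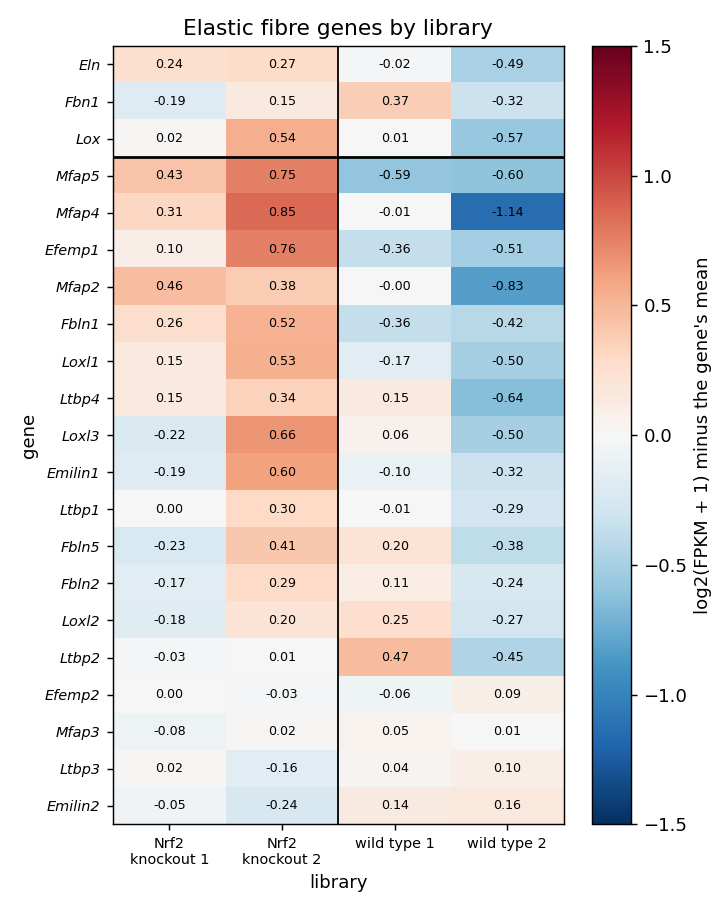
Eln, Fbn1 and Lox (above the line) and the 18 tested genes of elastic fibre assembly (below it, by fold change), as log2(FPKM + 1) minus the gene's mean over the 4 libraries, with knockout libraries left of wild-type libraries. Knockout 2 is mostly red and wild type 2 mostly blue, and Fbn1 is highest in wild type 1 (0.37).

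Enzymes that can degrade elastin were listed as well. Of 10, 6 were tested, 0 passed the adjusted threshold, and 3 had an unadjusted limma p under 0.05, all higher in knockout tumours, where all tested genes gave 8.36% higher. Both knockout libraries lay above both wild-type libraries for 5 of the 6, an arrangement of 22.7% of all tested genes. Mmp12, macrophage elastase, stood at 35.0 and 61.4 FPKM in knockout libraries, against 13.9 and 13.2 FPKM in wild-type libraries (limma adjusted p = 0.096). Ctsk, cathepsin K, stood at 78.5 and 68.7 FPKM in knockout libraries, against 37.5 and 39.6 FPKM in wild-type libraries (limma adjusted p = 0.0722), and Mmp9, gelatinase B, at 2.84 and 3.25 FPKM in knockout libraries, against 1.03 and 1.35 FPKM in wild-type libraries (limma adjusted p = 0.125). The neutrophil proteases Elane and Ctsg were listed at 0 in all 4 libraries.

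Of the collagen-binding proteoglycans, Dcn had replicates that lay close together within each genotype. Dcn encodes decorin and lies on chromosome 10 (97479609 to 97518143, plus strand). It stood at 29.6 and 30.5 FPKM in knockout libraries, against 20.2 and 18.6 FPKM in wild-type libraries. The libraries of a genotype differed by a ratio of 1.03 in knockout and 1.08 in wild-type tumours, less than the ratio of 1.55 between the means. For Dcn the log2 fold change was 0.61 with a 95% interval of 0.35 to 0.86 (limma adjusted p = 0.12, unadjusted p = 0.0011), the lowest p of the 9 tested genes.

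Lum, lumican, lies beside Dcn on the same chromosome (97565128 to 97572703, plus strand) and was barely present. It stood at 0.349 and 0.571 FPKM in knockout libraries, against 0.445 and 0.25 FPKM in wild-type libraries. Only 13 and 20 reads lay behind the knockout values and 20 and 11 behind the wild-type values. The counting intervals of all 4 libraries overlapped, the widest reaching from 0.349 to 0.881 FPKM in knockout 2, so no difference was detectable at this depth. Dcn per Lum was 84.9 and 53.5 in knockout libraries and 45.3 and 74.5 in wild-type libraries.

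Of 13 other small leucine-rich proteoglycans, 7 were tested, 0 passed the adjusted threshold and 2 had an unadjusted limma p under 0.05, both higher in knockout tumours (8.36% of all tested genes). The list median was 0.56, with both knockout libraries above both wild-type libraries for 3 and below them for 0, beside 22.7% and 25.4% of all tested genes. Ogn, osteoglycin, stood at 6.79 and 7.36 FPKM in knockout libraries, against 4.85 and 1.65 FPKM in wild-type libraries (limma adjusted p = 0.264). Podn, podocan, stood at 6.18 and 10.8 FPKM in knockout libraries, against 3.62 and 3.64 FPKM in wild-type libraries (limma adjusted p = 0.173), and Fmod, fibromodulin, at 5.24 and 9.40 FPKM in knockout libraries, against 5.18 and 3.74 FPKM in wild-type libraries (limma adjusted p = 0.378). Bgn, biglycan, the most abundant of them and named after its values were seen, overlapped at 380 and 495 FPKM in knockout libraries and 557 and 391 FPKM in wild-type libraries.

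The adhesive and matricellular members showed no separation of genotypes. Fn1 encodes fibronectin and lies on chromosome 1 (71585520 to 71653200, minus strand). It stood at 65.8 and 106 FPKM in knockout libraries, against 104 and 78.2 FPKM in wild-type libraries. Knockout 1 was the lowest and knockout 2 the highest library, so the knockout libraries enclosed both wild-type ones. Limma gave a log2 fold change of -0.11 with a 95% interval of -0.71 to 0.49 (limma adjusted p = 0.87), and it was above 0 without knockout 1 (0.23) and without wild type 1 (0.09).

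Postn encodes periostin, a matricellular protein of activated fibroblasts, and lies on chromosome 3 (54361109 to 54391037, plus strand). It stood at 19.5 and 53.4 FPKM in knockout libraries, against 34.8 and 14.1 FPKM in wild-type libraries. The libraries of a genotype differed by ratios of 2.74 in knockout and 2.46 in wild-type tumours, more than the ratio of 1.49 between the means. The log2 fold change of 0.52 had an interval of -0.81 to 1.85 (limma adjusted p = 0.686), and was -0.18 without knockout 2 and -0.10 without wild type 2. Postn per Dcn was 0.659 and 1.75 in knockout libraries and 1.72 and 0.758 in wild-type libraries, so 1 library of each genotype was high and 1 low.

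Sparc encodes a collagen-binding matricellular protein that endothelial cells also make, and lies on chromosome 11 (55394500 to 55423183, minus strand). It stood at 764 and 819 FPKM in knockout libraries, against 829 and 676 FPKM in wild-type libraries. It varied least over the 4 libraries, by a ratio of 1.23 between the highest and the lowest. Its log2 fold change was 0.08 with an interval of -0.32 to 0.48 (limma adjusted p = 0.857), and was -0.07 without wild type 2 and -0.08 with quantile normalization. At least 17427 reads per library lay behind these values.

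**Figure D3:**
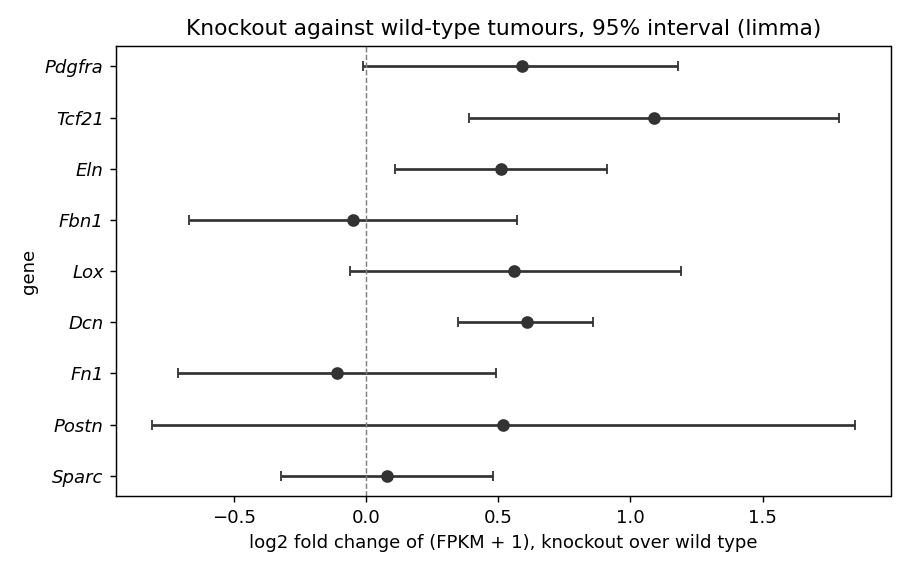
Log2 fold change of (FPKM + 1), knockout over wild type, for the 9 tested genes, as points with 95% intervals from limma before adjustment for multiple testing, and a dashed line at 0. The intervals of Tcf21, Eln and Dcn lie above 0 (from 0.39, 0.11 and 0.35), and that of Postn is the widest (-0.81 to 1.85).

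Of 19 other matricellular and fibronectin-like genes, 16 were tested, 0 passed the adjusted threshold and 2 had an unadjusted limma p under 0.05, both higher in knockout tumours (8.36% of all tested genes), with a list median of 0.18. Both knockout libraries lay above both wild-type libraries for 4 of the 16 and below them for 1, beside 22.7% and 25.4% of all tested genes. Spock2, a testican proteoglycan of the SPARC family, stood at 29.4 and 45.4 FPKM in knockout libraries, against 27.6 and 14.1 FPKM in wild-type libraries (limma adjusted p = 0.306). Spon1, spondin 1, stood at 7.05 and 10.2 FPKM in knockout libraries, against 5.75 and 4.04 FPKM in wild-type libraries (limma adjusted p = 0.245). Ccn5, a matricellular growth regulator, stood at 7.04 and 8.85 FPKM in knockout libraries, against 6.94 and 4.06 FPKM in wild-type libraries (limma adjusted p = 0.391).

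Among receptors for fibronectin, 8 of 9 listed integrin chains were tested and 0 passed the adjusted threshold, with a median of 0.06. Both knockout libraries lay above both wild-type libraries for 0 of the 8 and below them for 1, beside 22.7% and 25.4% of all tested genes. At an unadjusted p under 0.05 limma gave 1, lower in knockout tumours (7.01% of all tested genes). This was Itgav, the alpha V chain, at 26.4 and 28.4 FPKM in knockout libraries, against 39.1 and 31.7 FPKM in wild-type libraries (limma adjusted p = 0.297). For PDGF ligands and the second receptor chain, 5 of 5 were tested and 0 passed the adjusted threshold, and 1 was higher at an unadjusted limma p under 0.05 (8.36% of all tested genes). Both knockout libraries lay above both wild-type libraries for 2 of the 5 and below them for 0 (22.7% and 25.4% of all tested genes). Pdgfa, the ligand of PDGFRA, stood at 31.6 and 42.8 FPKM in knockout libraries, against 26.6 and 26.7 FPKM in wild-type libraries (limma adjusted p = 0.27). Pdgfc, another ligand of that receptor, stood at 1.66 and 1.55 FPKM in knockout libraries, against 1.10 and 1.25 FPKM in wild-type libraries (limma adjusted p = 0.476).

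The TGF-beta pathway drives matrix production in fibroblasts. Of 15 listed genes of it, 14 were tested, 0 passed the adjusted threshold, and 2 had an unadjusted limma p under 0.05, both lower in knockout tumours (7.01% of all tested genes). The list median was -0.07, and both knockout libraries lay above both wild-type libraries for 2 and below them for 5, beside 22.7% and 25.4% of all tested genes. Smad3, a signal transducer, stood at 51.5 and 47.6 FPKM in knockout libraries, against 67.2 and 67.9 FPKM in wild-type libraries (limma adjusted p = 0.172). Tgfbr1, the type I receptor, stood at 69.7 and 61.2 FPKM in knockout libraries, against 86.1 and 84.0 FPKM in wild-type libraries (limma adjusted p = 0.233). Smad6, an inhibitory member, stood at 26.9 and 26.2 FPKM in knockout libraries, against 23.0 and 22.6 FPKM in wild-type libraries (limma adjusted p = 0.389).

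Other transcription factors of lung mesenchyme were arranged like Tcf21 in most cases. Of 16 listed, 12 were tested, and both knockout libraries lay above both wild-type libraries for 11 and below them for 1, where all tested genes gave 22.7% and 25.4%. None passed limma's adjusted threshold, and at an unadjusted p under 0.05 there were 8 higher and 1 lower, beside 8.36% and 7.01% of all tested genes. The list median was 0.54. Wild type 2 was the lowest and knockout 2 the highest library at once for 10 of the 12, where all tested genes gave 12.2%. The 1 lower gene was Gata6, named after its values were seen. It stood at 23.7 and 27.6 FPKM in knockout libraries, against 31.2 and 32.3 FPKM in wild-type libraries (limma adjusted p = 0.307). Tbx2, a T-box factor, stood at 15.7 and 19.4 FPKM in knockout libraries, against 9.38 and 6.69 FPKM in wild-type libraries (log2 fold change 1.05 ± 0.18 SE, limma adjusted p = 0.12). Foxf2, a forkhead factor, stood at 3.67 and 5.69 FPKM in knockout libraries, against 2.62 and 1.72 FPKM in wild-type libraries (0.83 ± 0.23, limma adjusted p = 0.212). Zeb1, a zinc finger factor of mesenchymal cells, stood at 11.5 and 12.3 FPKM in knockout libraries, against 8.42 and 5.57 FPKM in wild-type libraries (0.71 ± 0.19, limma adjusted p = 0.20).

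Of 25 listed surface and secreted markers of fibroblasts, 22 were tested, 0 passed the adjusted threshold, and 13 were higher and 1 lower at an unadjusted limma p under 0.05, where all tested genes gave 8.36% and 7.01%. Both knockout libraries lay above both wild-type libraries for 14 and below them for 2 (22.7% and 25.4% of all tested genes), and the list median was 0.65. Dpt, dermatopontin, stood at 15.3 and 20.7 FPKM in knockout libraries, against 5.76 and 4.44 FPKM in wild-type libraries (1.63 ± 0.19 SE, limma adjusted p = 0.0696). S100a4, a calcium-binding protein that macrophages and lymphocytes also make, stood at 30.1 and 44.5 FPKM in knockout libraries, against 12.5 and 10.9 FPKM in wild-type libraries (1.57 ± 0.19, limma adjusted p = 0.0722). Inmt, a methyltransferase abundant in mouse lung fibroblasts, stood at 169 and 161 FPKM in knockout libraries, against 98.2 and 51.5 FPKM in wild-type libraries (1.20 ± 0.28, limma adjusted p = 0.173). Of 10 fibroblast collagens, 10 were tested, and 3 were higher and 0 lower at an unadjusted limma p under 0.05 (8.36% and 7.01% of all tested genes). Both knockout libraries lay above both wild-type libraries for 4 and below them for 0 (22.7% and 25.4% of all tested genes), and the list median was 0.71. Col6a1, a collagen VI chain, was the 1 collagen that passed the adjusted threshold, where 0.0761% of all tested genes were called higher. It stood at 61.3 and 65.3 FPKM in knockout libraries and 27.0 and 25.9 FPKM in wild-type libraries (limma adjusted p = 0.0255). For Col13a1, Col6a2 and Col3a1 both knockout libraries also lay above both wild-type libraries, at log2 fold changes of 0.89, 0.89 and 0.86 (limma adjusted p = 0.27, 0.209 and 0.335). The highest log2 fold change among the collagens, 1.69, was that of Col14a1, a fibril-associated collagen named after its values were seen, at 1.90 and 47.8 FPKM in knockout libraries, against 3.87 and 1.80 FPKM in wild-type libraries (limma adjusted p = 0.543). Knockout 2 alone was high, and knockout 1 lay within the wild-type range.

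In each of the 9 tested genes knockout 2 lay above knockout 1 and wild type 1 above wild type 2, while the full order of the libraries differed between genes. Wild type 2 was the lowest library for 8 of the 9 and knockout 2 the highest for 7, with both at once for 6, where all tested genes gave 19.7%, 30.1% and 12.2%. Relative to each gene's mean over the libraries, their median log2(FPKM + 1) was 0.02 and 0.33 in knockout libraries 1 and 2, and 0.05 and -0.49 in wild-type libraries 1 and 2. Knockout 1 and wild type 1 were close to each other. Endothelial markers (10 of 10 tested, 0 called) had medians in the same order, at -0.03 and 0.50 in knockout libraries and 0.15 and -0.65 in wild-type libraries. Smooth muscle and pericyte markers (8 of 10 tested, 0 called) stood at -0.10 and 0.49 in knockout libraries and -0.08 and -0.37 in wild-type libraries. The median over the 12 alveolar epithelial markers lay within 0.09 of the mean in all 4 libraries, while single markers ranged wider. Napsa, the aspartic protease napsin A, named after its values were seen, stood at 260 and 473 FPKM in knockout libraries, against 217 and 160 FPKM in wild-type libraries (log2 fold change 0.91, limma adjusted p = 0.257).

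**Figure D4:**
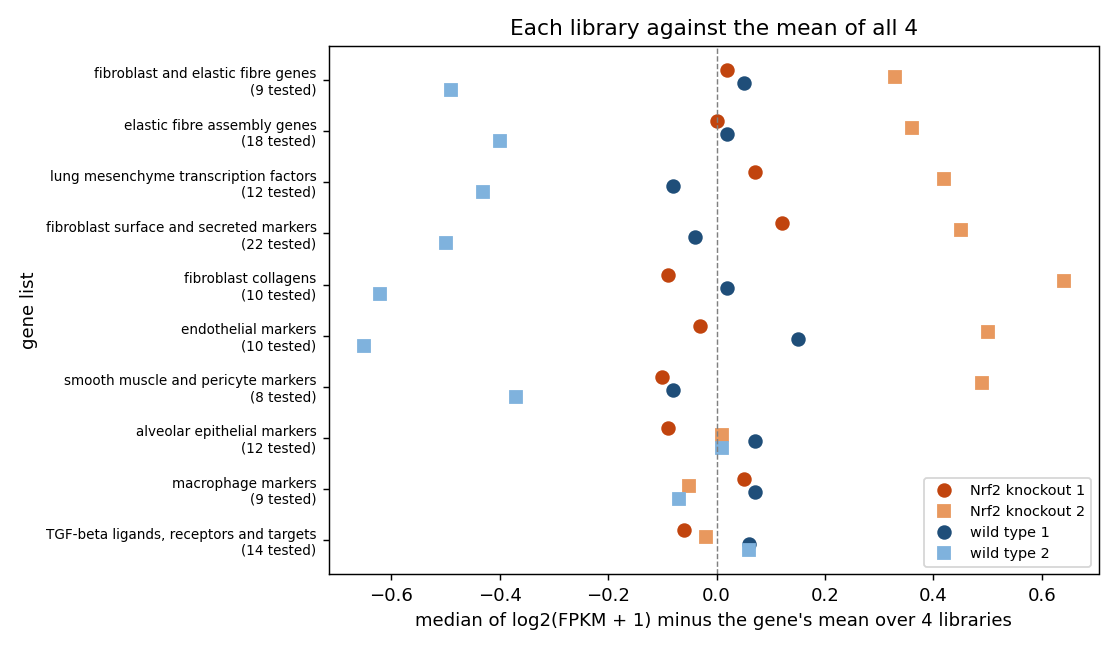
Median over each gene list of log2(FPKM + 1) minus the gene's mean over the 4 libraries, with knockout libraries in orange and wild-type libraries in blue (circles for library 1, squares for library 2). For the fibroblast, elastic fibre, endothelial and smooth muscle lists wild type 2 lies lowest (-0.65 to -0.37) and knockout 2 highest (0.33 to 0.64), while the medians of the epithelial, macrophage and TGF-beta lists stay between -0.09 and 0.07.

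Markers of other cell types moved with some of these values, and their part in the results was not tested. Summed over all listed genes, endothelial markers stood at 208 and 295 FPKM in knockout libraries and 219 and 129 FPKM in wild-type libraries, with 0 of 10 genes at 0 in any library and Egfl7 highest at 51.6 and 55.5 FPKM in knockout libraries, against 40.3 and 32.7 FPKM in wild-type libraries. Smooth muscle and pericyte markers summed to 108 and 168 FPKM in knockout libraries and 98.4 and 83.9 FPKM in wild-type libraries, with Rgs5 highest at 33.9 and 65.6 FPKM in knockout libraries, against 31.4 and 29.6 FPKM in wild-type libraries. Mesothelial markers, from the lung's outer lining, were higher in both knockout libraries for 4 of 5 tested genes (22.7% of all tested genes). The 9 matched genes summed to 213 and 173 FPKM in knockout libraries and 209 and 230 FPKM in wild-type libraries. Without Krt19, a keratin that epithelium shares (200 and 157 FPKM in knockout, 206 and 223 FPKM in wild-type libraries), the 8 matched genes summed to 13.2 and 16.8 FPKM in knockout libraries, against 3.03 and 7.27 FPKM in wild-type libraries. Adipocyte markers summed to 73.9 and 135 FPKM in knockout libraries and 49.6 and 42.1 FPKM in wild-type libraries, most of it Fabp4 (62.9 and 122 FPKM in knockout, 41.7 and 34.3 FPKM in wild-type libraries). Of the 8 listed, 2 were tested and 5 stayed below 1 FPKM in all libraries. Adipoq and Plin1 were among those 5, as were Lep and Cfd, listed at 0 in all libraries. Erythroid markers summed to 1194 and 1094 FPKM in knockout libraries and 247 and 490 FPKM in wild-type libraries, Hbb-bs being highest at 682 and 588 FPKM in knockout libraries, against 126 and 249 FPKM in wild-type libraries. Mitochondrial genes took 2.91% and 2.23% of reads in knockout libraries and 1.37% and 1.69% in wild-type libraries.

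Macrophage and striated muscle markers had median log2 fold changes near 0, with single genes on either side. Macrophage markers summed to 18497 and 13009 FPKM in knockout libraries and 10974 and 10371 FPKM in wild-type libraries. That sum largely follows 1 gene, Lyz2 (17200 and 12000 FPKM in knockout, 9800 and 9250 FPKM in wild-type libraries, limma adjusted p = 0.483). For 6 of the 9 tested the genotypes overlapped. Both knockout libraries lay above both wild-type libraries for 2 and below them for 1 (22.7% and 25.4% of all tested genes). The log2 fold changes of the 9 tested ran from -2.50 to 0.59 with a median of 0.03. The lowest was that of Marco, a scavenger receptor of alveolar macrophages, named after its values were seen, at 3.78 and 1.34 FPKM in knockout libraries, against 20.9 and 15.4 FPKM in wild-type libraries (limma adjusted p = 0.0852). Striated muscle markers summed to 163 and 83.1 FPKM in knockout libraries and 236 and 208 FPKM in wild-type libraries. Most of it was Myh7, at 118 and 58.3 FPKM in knockout libraries, against 186 and 163 FPKM in wild-type libraries. Of the 10 listed, 6 were not tested, 4 of them below 1 FPKM in all libraries. Of the 4 tested, both knockout libraries lay above both wild-type libraries for Tnni3 and Actc1 (log2 fold changes of 0.80 and 1.08) and below them for Myh6 and Myh7 (-0.80 and -1.06), all named after their values were seen. Cartilage markers stayed between 1.58 and 1.94 FPKM in sum, with Acan, Snorc and Col9a1 listed at 0 in all libraries and Col11a2 highest at 1.51 and 1.09 FPKM in knockout libraries, against 0.993 and 1.47 FPKM in wild-type libraries.

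Over all tested genes that were not members, 5 lay closest to the members' median pattern across the 4 libraries, by Euclidean distance of log2(FPKM + 1) centred on each gene's mean. They were Pygm, muscle glycogen phosphorylase (distance 0.0594), Scnn1g, a sodium channel subunit (0.0607), Map6, a microtubule-associated protein (0.066), Slc24a3, a cation exchanger (0.0677), and Ebf1, a transcription factor of B cells and stroma (0.0692). Ebf1 stood at 0.975 and 1.51 FPKM in knockout libraries, against 1.12 and 0.413 FPKM in wild-type libraries. With 4 libraries such likeness is a description of their order. Of the members themselves Pdgfra (0.225), Eln and Lox (0.238 each) lay closest to that pattern and Postn (0.936) farthest from it.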

How the data were processed

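RNA from 4 pooled lung tumour samples was sequenced, and the authors deposited FPKM per gene, as the values show. Build mm10, TopHat2 and DESeq2 are named, per the submitters' processing notes, with neither role nor version. Counter, annotation, gene lengths and strand use were not given in the sources used here, so reads of overlapping or similar genes cannot be told apart.

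Of 35275 identifiers, 34490 matched a GENCODE symbol on GRCm38 (the mm10 assembly). All 21601 genes above 0 gave whole reads within 0.0002 reads plus 2e-08 per read and the file's rounding, at an annotated length for 5488 and otherwise at the smallest length that fitted, so reads may be undercounted. Intervals from reads cover counting error only. The median tested gene had 511 reads per library.

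Knockout was compared with wild type in limma 3.58.1 (R 4.3.3) on log2(FPKM + 1), trend in the prior, Benjamini-Hochberg over 13147 genes at or above 1 FPKM in 2 or more libraries. Fold changes on this scale understate changes of low genes. The fit was tested on simulated data. The members and the 19 gene lists were chosen with earlier results of these data known. From each list the text names called genes and the 3 largest differences with both knockout libraries on 1 side, and from lists of other cell types the gene with the highest mean. Muc16 was not matched. The fit was repeated under 12 other settings (normalization, filter, pseudocount, trend, voom, replicate block, leaving out each library).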

Additional observations from a re-analysis of the deposited data

How the results depend on the processing

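The 9 tested fibroblast and elastic fibre genes stayed uncalled under 12 other settings (Fbn1 and Lox were not tested at an FPKM of at least 5), with 0.0903 as the lowest adjusted p (Tcf21 without knockout 1). Apart from leaving out libraries, 69 of 70 member fold changes kept their direction, Sparc at -0.08 with quantile normalization being the exception. With single libraries left out (the lone library of a genotype then being assumed to vary like the others) 7 of 36 changed sign. These ranges ran from -0.45 to 0.23 for Fn1, from -0.39 to 0.30 for Fbn1, from -0.18 to 1.23 for Postn and from -0.07 to 0.23 for Sparc. The count of members higher in every knockout library ran from 5 to 9, where the share of all tested genes ran from 22.7% to 39.1%. The number of genes called over the whole table was 1 with no filter, 8 with limma-voom on recovered reads, and 10 to 221 with single libraries left out. Those causes were not tested. The labels do not say that a replicate number pairs libraries, same-numbered libraries deviated with a correlation of -0.306, and the replicate block gave 69 calls, 0 of them members. The crossed pairing, added after the data were seen, joined each knockout library with the wild-type library of the other number. It gave 848 calls among 13147 genes, 4 of them among the 9 tested members. The labels do not state this pairing either. It takes the order of libraries within each genotype, which the 9 tested genes shared, out of the spread. Its choice thus favoured calls of members, and no conclusion is drawn from them. Lum, with 11 to 20 reads per library, was too shallow to compare.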
